A study of Mus musculus with 3 samples.

Results

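The inhibitory myeloid receptors described here are 10 genes chosen by symbol: Sirpa, Pirb, Lilrb4a, Lilr4b, Cd300lf, Cd33, Siglece, Siglec1, Havcr2 and Laptm5. All 10 matched the annotation, among 55536 annotated genes of the series. The rule that chose them uses no measured value, but earlier results of these data were known when they were chosen. They were measured in bone-marrow-derived macrophages (BMDM), primary cells grown from C57BL/6J mouse marrow, after 30 min with 100 ng/ml Lipid A, the part of bacterial lipopolysaccharide that engages Toll-like receptor 4. RNA of the cytosolic fraction was sequenced as total RNA after depletion of ribosomal RNA, in 1 group of 3 libraries. The labels number them biological replicates 1, 2 and 3 but record the same donor for all 3, and give neither the age nor the sex of the mice, so errors and p-values describe how far these samples differ, part of which may be technical. Unstimulated cells were not analysed here, and the values are levels at 1 time point.

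Inhibitory receptors set a threshold for macrophage activation. Many carry in their cytoplasmic tail an immunoreceptor tyrosine-based inhibitory motif (ITIM), which is phosphorylated by Src-family kinases and then recruits the phosphatases SHP-1, SHP-2 or SHIP-1. Relatives of the same families that lack the motif often pair instead with adaptors such as DAP12 and act in the opposite direction. Sirpa binds CD47 on neighbouring cells as a "do not eat me" signal, Pirb binds major histocompatibility complex (MHC) class I, and the Siglecs bind sialic acid on glycans.

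Depth and sample makeup bear on every value below. Summed over annotated genes, replicates 1, 2 and 3 held 23403552, 50435201 and 35785896 expected counts. Nuclear protein-coding genes took 22.3%, 34.4% and 24.3% of all TPM (a level scaled to the whole library and corrected for transcript length), so the TPM scale itself differs between libraries. All 10 macrophage markers lay above 10 TPM, with Lyz2, Cd68 and Csf1r highest. Of 8 stromal markers, the sum was 23.9 TPM in replicate 1 against 0.05 and 0.12 in replicates 2 and 3, led by Col1a1 and Col1a2 in replicate 1, and 5 of the 8 were listed at 0 TPM in replicate 2. Of 10 neutrophil markers 4 reached 1 TPM, led by S100a9 (17.3 ± 10 TPM, SD, n = 3) and Csf3r (15.7 ± 0.82 TPM), with sums of 27.1, 61.7 and 45.6 TPM in replicates 1, 2 and 3. Of 6 dendritic markers only Batf3 passed 1 TPM (1.52 ± 0.17), and none of 6 T and NK or 5 B cell markers did. The part of these cells in the receptors' values was not tested, and fewer cells of a type and less RNA per cell cannot be told apart.

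The receptors differ in whether they carry the ITIM. In the principal coding transcript of each gene, the tail was taken as the residues after the most hydrophobic window of 19 residues, and it was searched for the ITIM pattern: isoleucine, leucine, valine or serine, any residue, tyrosine, any 2 residues, and isoleucine, leucine or valine. Sirpa and Pirb held 3 sites each, Lilrb4a and Cd300lf 2 each and Siglece 1. None was found in Lilr4b, Cd33, Siglec1 or Havcr2, whose tails hold 1, 1, 1 and 6 tyrosines. Laptm5 crosses the membrane several times, so a single tail could not be defined and its sites were not counted. Sirpa, Cd300lf and Siglece each held 1 site of the related switch motif (threonine in the leading position) in the same tail. For scale, 16.6% of 21853 protein-coding genes hold the ITIM pattern at least once in their last 100 residues and 3.64% at least 2 times, against 5 and 4 of the 10 receptors. This count takes the last 100 residues of each protein, so it covers Laptm5, which held no site there. The 10 were chosen by name as inhibitory receptors, so the gap to all genes is not read as a result. The coding bases of 1 site for each of the 5 genes are shown to place the motif in the genome (mm10, GENCODE M21 transcripts, 5′ to 3′ on the coding strand). Capitals mark the tyrosine codon that the kinases act on.
Sirpa, tyrosine 436, chr2:129629954-129629971, plus strand: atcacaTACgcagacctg
Pirb, tyrosine 794, chr7:3712786-3712803, minus strand: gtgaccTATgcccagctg
Lilrb4a, tyrosine 322, chr10:51496194-51496211, plus strand: gtaaccTATgcccagttg
Cd300lf, tyrosine 234, chr11:115117648-115117665, minus strand: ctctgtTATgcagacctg
Siglece, tyrosine 432, chr7:43651585-43651602, minus strand: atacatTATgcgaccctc

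The 10 genes covered more than 3 orders of magnitude of level. The plot of levels by library shows a top pair, Sirpa and Laptm5, a middle trio of leukocyte immunoglobulin-like receptor genes, a group of 4 with means between 7 and 24 TPM, and Siglece near the floor. Of the 10, 8 had a mean of 10 TPM or more, as did 7.45% of all annotated genes and 18% of nuclear protein-coding genes, and 4 passed 100 TPM. Their median of log2(TPM + 1) was 5.65 ± 0.35 (SD, n = 3), against 3.06 ± 0.29 over the 10033 genes at 1 TPM or more and 0 over all annotated genes. Setting TPM relative to nuclear protein-coding genes raised the median to 7.54, and the second transcript table gave 4.40. On 4 scales corrected for length (both tables, each as deposited and relative to nuclear protein-coding genes) each gene kept its place in the order of means. In TMM-scaled CPM, which is not corrected for length, 4 of the 10 did.

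**Figure D1:**
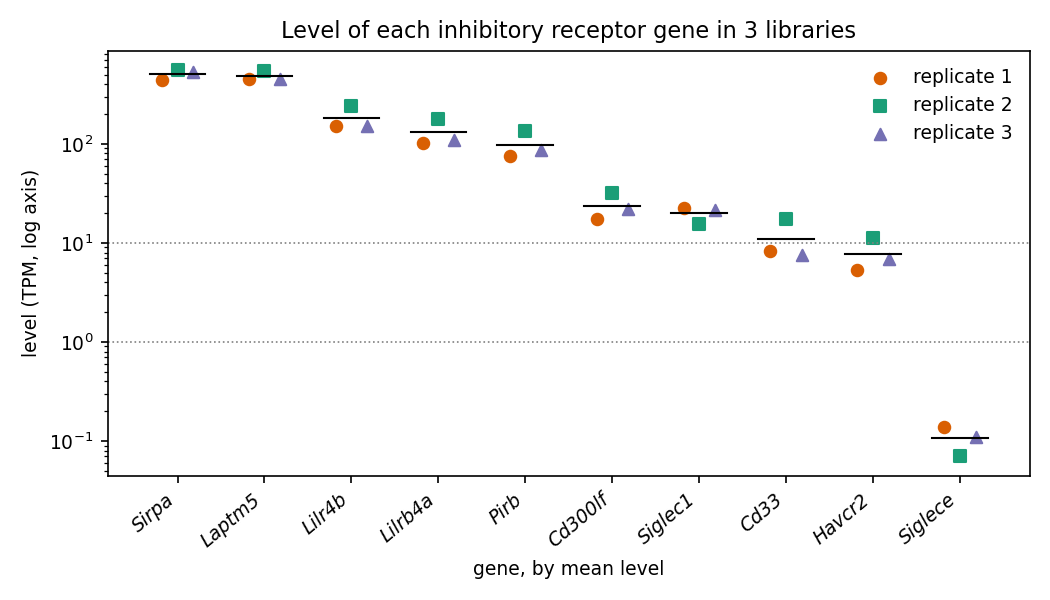
Level of each gene in TPM (log axis) in replicates 1 (circles), 2 (squares) and 3 (triangles), with the mean as a bar and dotted lines at 1 and 10 TPM. Sirpa and Laptm5 lie near 500 TPM in all 3 libraries, and Siglece lies at 0.14 TPM or below.

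Sirpa, the CD47 receptor, had 439, 557 and 536 TPM in replicates 1, 2 and 3 (mean 511 ± 63). It ranked 53 among nuclear protein-coding genes. The gene lies at chr2:129592835-129632228 on the plus strand and shares no run of 50 bases with transcripts of any other gene, so its reads are its own. Its transcripts with an ITIM tail held 85.7% ± 1.6 of its TPM, led by Sirpa-214 and Sirpa-204, and a short processed transcript without a coding sequence, Sirpa-207, held 12.8%. Its close relatives of the Sirpb family, which lack the motif and signal through DAP12, were far lower, with Sirpb1c at 0.81 ± 0.062 TPM and Sirpb1a and Sirpb1b under 0.5 TPM.

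Laptm5, a lysosomal membrane protein that sorts immune receptors for degradation, had 451, 539 and 449 TPM (mean 479 ± 51) and ranked 60. Nearly all of it was 1 transcript, Laptm5-207, with 99% ± 0.62 of the gene's TPM. Sirpa was above Laptm5 in replicates 2 and 3 and below it in replicate 1. The difference was 0.09 ± 0.15 in log2(TPM + 1), so the order of the top pair was within its spread.

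Lilr4b and Lilrb4a are neighbouring genes of the gp49 family. Lilrb4a (chr10:51490956-51496611, plus strand) encodes the inhibitory receptor gp49B, and Lilr4b (chr10:51480632-51486703, plus strand) its relative without the motif. Lilr4b had 151, 244 and 152 TPM in replicates 1, 2 and 3 (mean 182 ± 53). Lilrb4a had 103, 179 and 109 TPM (mean 131 ± 42). Lilrb4a was lower in each library, by 0.49 ± 0.05 on the log2 scale of TPM + 1 (p = 0.25 by an exact permutation of signs, two-sided, the smallest that 3 libraries allow). Their ranges over libraries overlapped.

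The coding sequences show how close the pair is. Lilrb4a-201 codes for 335 residues and Lilr4b-201 for 303, and 871 of 907 aligned coding bases (96%) were identical, including all 57 that code for the hydrophobic window. In exon 8 of 9, which is 66 bases long in Lilrb4a and 68 in Lilr4b, Lilr4b holds 2 more bases within a run of c. The reading frame shifts there and ends in a taa stop. Both stretches are shown from the first whole codon of exon 8, since the change of tail lies here.
Lilrb4a, chr10:51495994-51496039, plus strand: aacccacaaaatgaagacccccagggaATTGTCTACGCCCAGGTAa
Lilr4b, chr10:51485713-51485760, plus strand: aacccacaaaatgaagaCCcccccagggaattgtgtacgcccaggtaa
Capitals mark the ITIM codons in Lilrb4a, around tyrosine 300, and the 2 further bases in Lilr4b, which could be placed at any point of the run of c.

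The order of the pair depends on how another annotated gene is read. Gm49339 (chr10:51480612-51496613, plus strand) is annotated as protein coding and overlaps both genes. Its main transcript Gm49339-203 joins 1 exon inside Lilr4b to 8 exons inside Lilrb4a and holds the same 1005 coding bases as Lilrb4a-201, so it encodes the same receptor. Gm49339 had 66.4, 110 and 74.9 TPM, and Lilrb4a-201 was listed at 0 TPM in each library of the first transcript table. All 1332 runs of 50 bases in Lilrb4a-201 occur in Gm49339-203, and the deposited posterior SD of the counts was nearly the same for Lilrb4a (140, 266 and 184) as for Gm49339 (140, 266 and 183). With Gm49339 added, Lilrb4a came to 169, 290 and 184 TPM, and the difference from Lilr4b turned to 0.23 ± 0.06 in favour of Lilrb4a in each library. This sum was added after the values were seen. The order of Lilrb4a and Lilr4b therefore rests on whether the read-through transcript is counted with Lilrb4a.

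Counted by coding transcripts with Gm49339 included, the ITIM-bearing transcripts were the higher of the pair. The 5 coding transcripts of Lilrb4a and Gm49339 with an ITIM tail summed to 68, 193 and 78.7 TPM in replicates 1, 2 and 3, and the 2 coding transcripts of Lilr4b to 29.3, 49.3 and 27.8 TPM. The ITIM-bearing share of these was 74.5% ± 4.9 in the first transcript table and 70.4% ± 2.3 in the second. The value of replicate 2 includes Lilrb4a-202, a shorter coding transcript at 84.1 TPM there and at 2.20 and 3.30 TPM in replicates 1 and 3. The second transcript table gave it 8.89, 0.0971 and 0.042 TPM in replicates 2, 1 and 3; it was again highest in replicate 2, at a far lower level. Of the ITIM-bearing sums, Gm49339-203 alone gave 64.9, 106 and 74.1 TPM in replicates 1, 2 and 3, and they too were made after the values were seen. Without Gm49339, the ITIM-bearing coding transcripts of Lilrb4a lay below the coding transcripts of Lilr4b in replicates 1 and 3 of the first transcript table. In replicate 2 they lay above them there, and in the second transcript table below them in each library. An antisense gene over Lilrb4a, Gm40645, had at most 0.15 TPM.

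**Figure D2:**
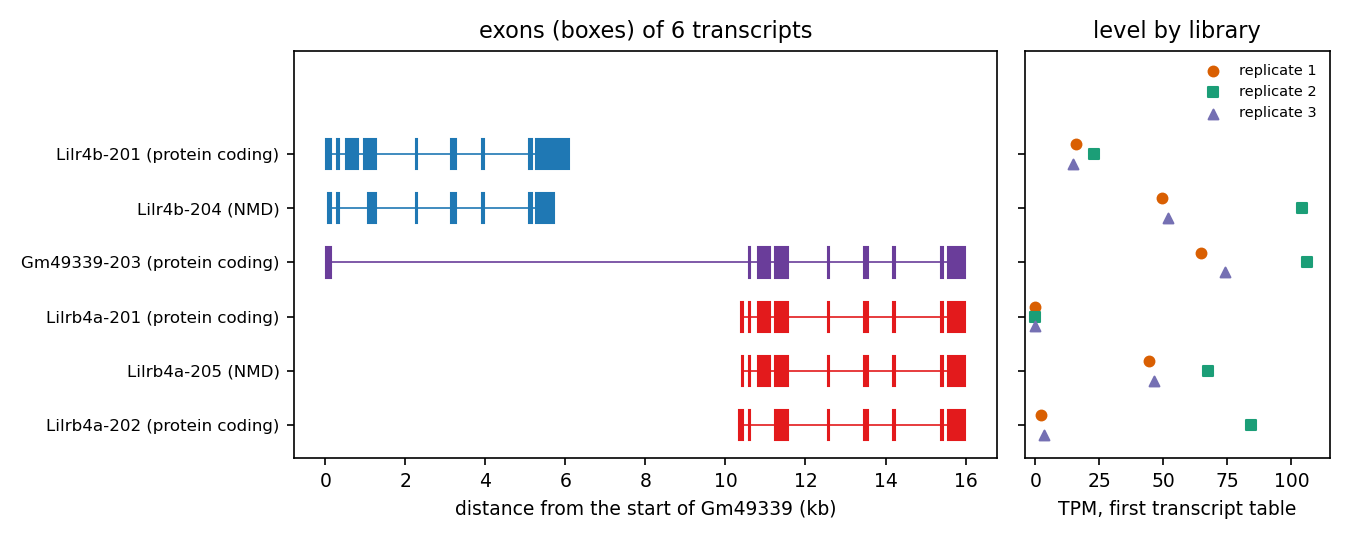
Left, exons (boxes) of 6 transcripts of Lilr4b, Gm49339 and Lilrb4a against distance in kb from the start of Gm49339. Right, TPM of each transcript in replicates 1, 2 and 3 of the first transcript table, with Lilrb4a-201 at 0 and Gm49339-203 at 64.9, 106 and 74.1.

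Pirb, the paired immunoglobulin-like receptor that binds MHC class I, had 76, 134 and 86 TPM (mean 98.6 ± 31) and ranked 429. It lies at chr7:3711409-3720391 on the minus strand beside the activating Pira genes, which share its extracellular sequence and lack the motif. Of the runs of 50 bases in Pirb transcripts, 34% occur in other genes, foremost Gm14548, Pira2 and Lilra6, so its counts depend on the authors' sharing of reads. The deposited posterior SD of its counts was small, at 19.7, 29.9 and 25.6 on 10237, 29930 and 16169 counts in replicates 1, 2 and 3. Of the counts given to Pirb and the Pira genes that could be matched (Pira2, Gm15922 at the RefSeq locus of Pira1, and Lilra6), Pirb held 61.8% (95% Wilson interval 61% to 62.5%), 63% (62.5% to 63.4%) and 63.7% (63.1% to 64.3%) in replicates 1, 2 and 3. The mean was 62.8% ± 0.97, and 60.4% with the paralogs Gm14548 and Gm15448 counted among the Pira genes. The highest of these relatives was Pira2 at 37.1, 66.5 and 39.4 TPM. Pirb was above Pira2 in each library.

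Among the 3 leukocyte immunoglobulin-like genes the order Lilr4b, Lilrb4a, Pirb was the same within each library. Lilrb4a exceeded Pirb by 0.40 ± 0.05 in log2(TPM + 1), but the ranges over libraries overlapped. Of the 9 pairs of neighbours in the order of the 10 genes, 6 kept their order in each library and 3 had ranges that did not overlap (Laptm5 above Lilr4b, Pirb above Cd300lf and Havcr2 above Siglece).

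Cd300lf, a receptor for phosphatidylserine on dying cells, had 17.4, 31.6 and 22.1 TPM (mean 23.7 ± 7.2). Its coding transcripts, all 3 with an ITIM tail, held 85.6% ± 3.3 of its TPM. It lies on chromosome 11 within Rab37 on the opposite strand, which had at most 0.39 TPM. Its relatives Cd300c2, Cd300ld and Cd300lb, of which Cd300c2 was the highest at 71.1 ± 13 TPM, were above it in each library. They are activating members of the same gene cluster. Cd300a, a gene of the cluster listed below among other inhibitory receptors, was also above it in each library, at 48.2 ± 5.7 TPM. Cd300c and Cd300e lay far below it, at 0.32 and 0.08 TPM.

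The 3 Siglecs were at very different levels. Siglec1 (sialoadhesin, CD169), which binds sialylated particles and has a short tail without an ITIM, had 22.7, 15.4 and 21.7 TPM (mean 19.9 ± 4). It was the only 1 of the 9 receptors above 1 TPM that was lowest in replicate 2 in TPM. Cd33, whose mouse tail holds no ITIM by the pattern used, had 8.22, 17.4 and 7.53 TPM (mean 11 ± 5.5). Siglece, the mouse receptor with an ITIM that binds sialic acids on host cells, had 0.14, 0.07 and 0.11 TPM from 7, 9 and 12 counts. The exact Poisson interval of its level was 0.12 to 0.616 CPM (reads relative to the library total, not corrected for length) in replicate 1, 0.0816 to 0.339 in replicate 2 and 0.173 to 0.586 in replicate 3, for counting error only, without the scaling used below. These counts exceeded the 3 counts that a zero would allow in each library, at a level far below the other 9 genes. Siglec1 and Cd300lf changed places between libraries (difference 0.21 ± 0.70 in log2(TPM + 1)), as did Siglec1 and Cd33 (0.87 ± 0.90).

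Havcr2 (TIM-3), a receptor for phosphatidylserine and galectin-9 with tail tyrosines outside the ITIM pattern, had 5.28, 11.1 and 6.81 TPM (mean 7.73 ± 3). Its transcript Havcr2-201 held nearly all of its TPM in both transcript tables. Cd33 was above Havcr2 in each library, by 0.43 ± 0.26 in log2(TPM + 1).

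As annotated, coding transcripts held a smaller share of the leukocyte immunoglobulin-like genes than of the other receptors, and for Lilrb4a this rests on leaving out Gm49339. In the first transcript table, coding transcripts held 19.3% ± 0.97 of the TPM of Lilr4b, 18.1% ± 25 of that of Lilrb4a and 31.8% ± 4.1 of that of Pirb. In Lilr4b most of the rest was annotated as subject to nonsense-mediated decay (48.9% ± 7.3), in Lilrb4a it was divided between nonsense-mediated decay (41% ± 3) and retained introns (40.9% ± 22), and in Pirb it was retained introns alone (68.2% ± 4.1). Coding transcripts held 77.4% or more in the other 7 genes. Of 3962 nuclear protein-coding genes at 10 TPM or more, 4.37% had under 50% in coding transcripts, against 3 of the 8 receptors at that level. Genes with coding transcripts only, which cannot fall under 50%, were not left out of this background. The second transcript table gave the same 3 genes, with 22.2%, 5.12% and 6.81% in coding transcripts of Lilr4b, Lilrb4a and Pirb. For Lilrb4a the coding share was 2.36%, 47.4% and 4.51% in replicates 1, 2 and 3, so its mean rests on replicate 2. Transcripts assigned to Gm49339, 98.8% coding, are not in these shares. With them added, after the values were seen, the coding share of Lilrb4a came to 40.3%, 66.8% and 42.9% in replicates 1, 2 and 3 (mean 50% ± 15), and to a mean of 46.4% ± 6.3 in the second table, so only Lilr4b and Pirb lay under 50% in each library on either count. Over the 10 genes the main transcript held a median of 54.7% ± 6.5 of the TPM, and the second table named the same main transcript for each of the 10. The 10 include Siglece, whose split rests on 7 to 12 counts. Over the 8 receptors at 10 TPM or more the median was 45.3% in the first table, against 83.2% over the 3962 genes. Those genes were not matched to the receptors by number of annotated transcripts.

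**Figure D3:**
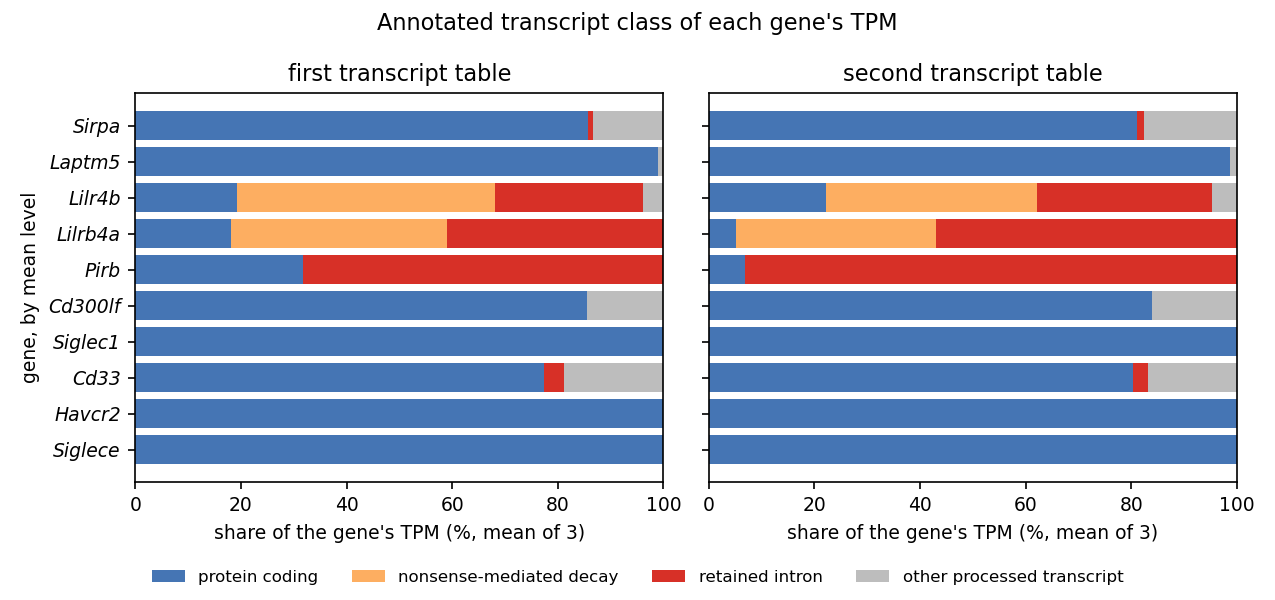
Share of each gene's TPM (%, mean of 3 libraries, bars from 0) in transcripts annotated as protein coding, subject to nonsense-mediated decay, retaining an intron or otherwise processed, in the 2 transcript tables. Lilr4b, Lilrb4a (without Gm49339) and Pirb are the 3 genes below 50% protein coding in both.

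Transcripts that retain an intron were annotated and detected in 5 of the 10 genes: Sirpa, Pirb, Lilrb4a, Lilr4b and Cd33. Their share was lowest in replicate 2 in all 5. In Lilr4b it was 31.3%, 17.9% and 35.1% in replicates 1, 2 and 3, in Lilrb4a 54.6%, 15% and 53.2%, in Pirb 71.4%, 63.6% and 69.7%, in Cd33 4.75%, 1.61% and 5.18%, and in Sirpa 1.43%, 0.237% and 1.38%. The same held for all 5 in the second table. Among 5453 nuclear protein-coding genes at 1 TPM or more with such transcripts, 58.2% were lowest in replicate 2 in the first table, and 64.5% of 5668 in the second. Replicate 2 was also the deepest library and the one with the highest protein-coding share of TPM, and the part of these in the difference was not tested.

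To set libraries beside each other without the shift in TPM, counts were scaled by the trimmed mean of M-values (TMM) and given as CPM. All 9 receptors with a mean count of 10 or more (Siglece had fewer) varied between libraries by more than Poisson sampling, in a chi-square test of dispersion with Benjamini-Hochberg adjustment over 13237 genes. So did 66.8% of all genes tested, and the count of 9 is read against it. The test gains power as counts rise, and no share was taken over genes with counts like those of the 9. The count is therefore not read as a trait of the receptors. Without replicate 2, 33.1% of genes and 8 of the 9 receptors were called, the exception being Lilrb4a. Without replicate 1, 55.3% of genes and 8 of the 10 receptors tested there were called, the exceptions being Cd300lf and Siglece.

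The sizes of these differences were small for most of the receptors. The ratio of the highest to the lowest library was 1.13 for Lilrb4a, 1.16 for Cd300lf, 1.21 for Pirb, 1.25 for Lilr4b, 1.27 for Laptm5, 1.32 for Sirpa and 1.40 for Havcr2, with a median of 1.27 over the 9 genes and 1.27 over all genes tested. The biological coefficient of variation (BCV) from edgeR had a median of 14.2% over the 9 genes, against 17.3% over all genes tested and 14.4% over those with a mean count of 100 or more. Gene-wise dispersions from DESeq2 gave the opposite order, 12.2% over the 9 genes against 10.2% and 9.22%, so whether the receptors varied less or more than other genes depends on the estimator. Lilrb4a and Cd300lf had the lowest BCV, 11.7% and 11.4%.

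Siglec1 and Cd33 passed a ratio of 1.5, as did 26.8% of all genes tested. Siglec1 had 287, 130 and 248 CPM in replicates 1, 2 and 3, a ratio of 2.21 and a BCV of 26.7%. Replicate 2 stood below the other two libraries. Cd33 had 71.1, 101 and 54.9 CPM, a ratio of 1.84 and a BCV of 21.2%, with replicate 2 the highest. In CPM 5 of the 9 genes were lowest in replicate 2 (Sirpa, Laptm5, Lilr4b, Lilrb4a and Siglec1), while Pirb, Cd33 and Havcr2 were highest there. Of all genes tested, 37.6% were lowest in replicate 2. Counted over the 9, 4 were highest in replicate 1, 3 in replicate 2 and 2 in replicate 3, where all genes tested gave 29.8%, 39% and 31.3%. The macrophage markers had a median deviation of -0.16 on the log2 scale in replicate 2, and the 8 stromal markers one of 2.64 in replicate 1. The 5 neutrophil markers tested had median deviations of -0.64, -0.10 and 0.43 in replicates 1, 2 and 3, and their summed CPM (89.4, 79 and 97.2) was lowest in replicate 2, where their summed TPM was highest. Their part in the values of Siglec1 and Cd33 was not tested.

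**Figure D4:**
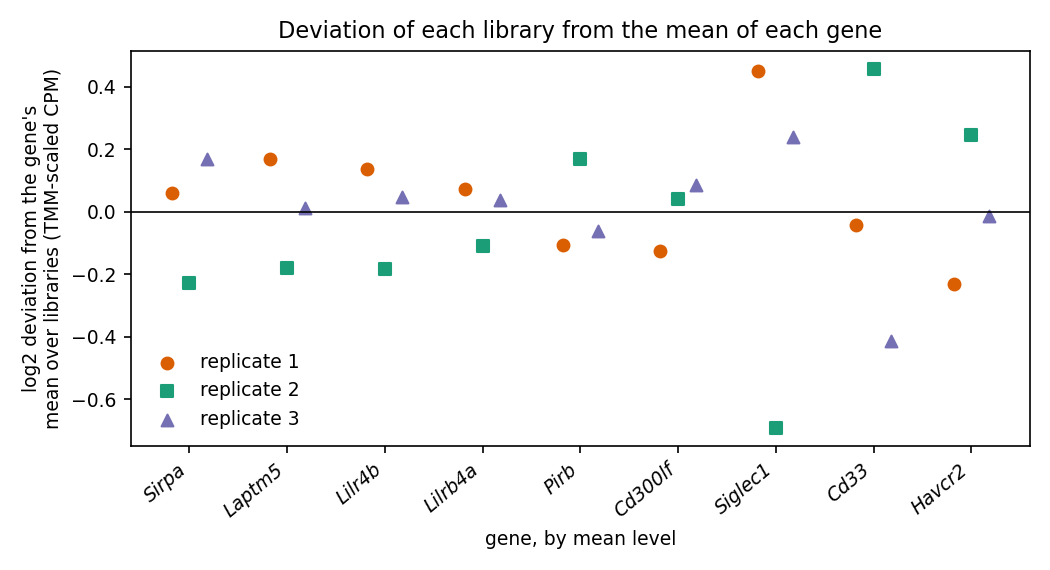
Log2 deviation of each library from the gene's mean over replicates 1 (circles), 2 (squares) and 3 (triangles), in TMM-scaled CPM with a prior count of 0.5. Siglec1 spans -0.69 to 0.45 and Cd33 -0.41 to 0.46, and the other 7 genes lie within 0.25 of 0.

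Genes that act around the receptors were taken from 7 lists. Of 13 phosphatases and other effectors of inhibitory signalling, 12 reached 1 TPM and 8 reached 10 TPM. The kinase Csk, which holds Src-family kinases inactive, had 52.4 ± 13 TPM, the lipid phosphatase Inpp5d (SHIP-1) had 51.1 ± 16 TPM and Ptpn6 (SHP-1) had 46.9 ± 15 TPM. Sirpa and Laptm5 were each above all 13 in every library. The related phosphatases Ptpn11 (SHP-2) and Inppl1 (SHIP-2), which the rule for named genes did not pick, were at 11.8 ± 3 and 16 ± 2.2 TPM.

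Of 14 kinases and adaptors of the activating side, 12 reached 1 TPM. The adaptors Tyrobp (DAP12), at 844 ± 179 TPM, and Fcer1g, at 566 ± 138 TPM, were the highest, followed by the kinase Syk at 75 ± 15 TPM. Tyrobp was above every inhibitory receptor gene in each library.

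The protein ligands were themselves expressed by these cells. Of 14 listed, 10 reached 1 TPM and 5 reached 100 TPM. Apoe, a lipid carrier reported to bind the human relative of Lilrb4a, had 2065 ± 528 TPM, B2m, the light chain of MHC class I, 1796 ± 606 TPM and the class I heavy chain gene H2-D1 1148 ± 96 TPM. Class I genes resemble each other closely, so the share of reads given to H2-D1 is uncertain. The ligand of Sirpa, Cd47, named because its receptor led the order, had 68.6, 91.3 and 63.6 TPM, below Sirpa in each library. The surfactant protein genes Sftpa1 and Sftpd, further ligands of Sirpa, had 0 counts in all 3 libraries, for which a zero allows up to 0.128, 0.0595 and 0.0838 CPM.

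Of 15 genes that make, attach or remove sialic acid, 13 reached 1 TPM and 3 reached 10 TPM: the sialidase Neu1 (24.9 ± 3 TPM), the transferase St6gal1 (14.9 ± 2.8 TPM) and the activating enzyme Cmas (13.2 ± 4.1 TPM). Their median of log2(TPM + 1), 2.39 ± 0.20, was below that of the receptors in each library. Of 8 partners in Laptm5 sorting, 7 reached 1 TPM. Wwp1 (95 ± 28 TPM) and Nedd4l (23.9 ± 8.9 TPM), both ubiquitin ligases, and the trafficking adaptor Gga1 (20 ± 2 TPM) led the list, and Nedd4 had 1.27 TPM in replicate 1 and under 0.2 in the other libraries.

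Of 19 other inhibitory receptors, 11 reached 1 TPM and 9 reached 10 TPM. Fcgr2b, the inhibitory Fc receptor, had 161 ± 44 TPM, Vsir (VISTA) 54.7 ± 6.1 TPM and Cd300a 48.2 ± 5.7 TPM. In the order of the 10 genes Fcgr2b would stand between Lilr4b and Lilrb4a by its mean. The T cell checkpoint genes Pdcd1, Btla, Lag3 and Tigit were all under 0.6 TPM in each library. Of 24 relatives from the same families, 18 matched a symbol of the annotation and 7 reached 1 TPM, led by Laptm4a (89.3 ± 24 TPM), Cd300c2 and Pira2. The plot of medians sets the lists beside the receptors. In each library the receptors' median lay above those of all the lists shown except the protein ligands.

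**Figure D5:**
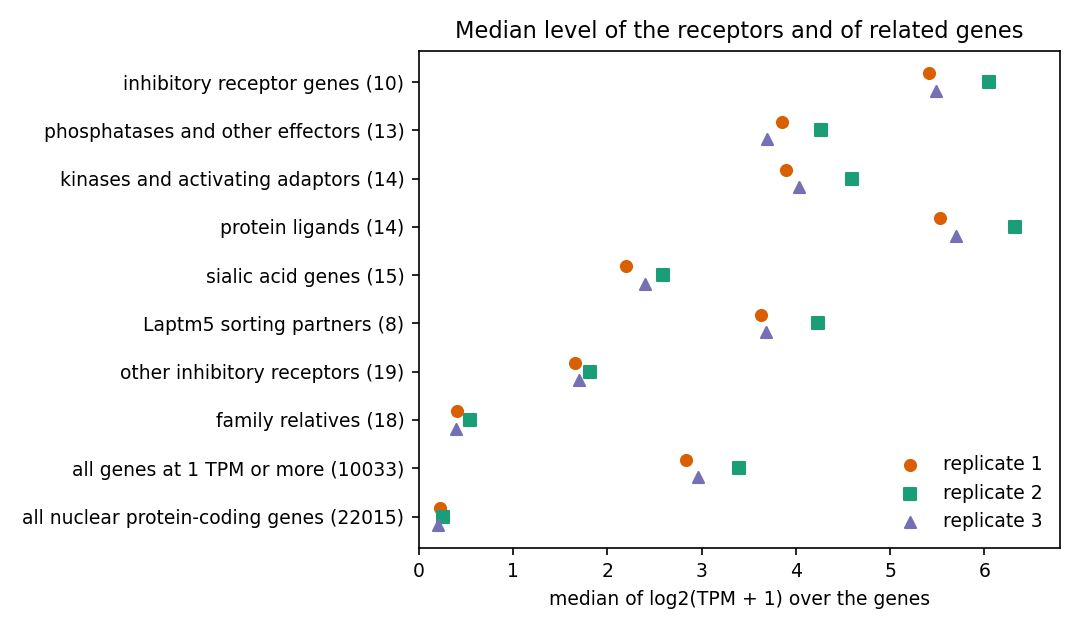
Median of log2(TPM + 1) over the 10 receptor genes, 7 lists of related genes and 2 sets of all genes (number of genes in brackets), in replicates 1, 2 and 3. The receptors lie between 5.42 and 6.05, and replicate 2 is highest in each row.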

How the data were processed

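Per the deposited readme files, values were made on mm10 with GENCODE M21, the annotation used here. Gene and first transcript tables follow the RSEM layout and second transcript tables the kallisto layout, per the file headers. For tool names, versions and strand handling: not given in the sources used here. The deposited expected counts are estimated reads, with shared reads divided by an estimator. The deposited TPM values are scaled per library over all rows. Of 81881 gene rows, 26345 outside the annotation (0.0969% to 0.462% of counts) were left out.

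Counts were rounded. edgeR 4.0.16 gave TMM factors and dispersions (intercept only), and DESeq2 1.42.0 alternatives. The chi-square test of dispersion used genes whose mean count was at least 10, at an adjusted p of 0.05. It was tested on simulated Poisson counts, which lack the wider variation of these data, so that check cannot show how it behaves here. Levels are TPM as deposited, mean ± SD over 3 libraries, with a pseudocount of 1 on the log2 scale, which understates differences of low genes. Intervals cover counting error only. Coding sequences came from GENCODE M21 transcripts, and hydrophobic windows were searched from residue 40 on. Python 3.11.15, scipy 1.17.1 and Biopython 1.88 were used.

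Members and lists were chosen with earlier results of these data known. Named are the members, the 3 highest genes of each list, overlapping or similar genes and up to 2 markers per other cell type at 1 TPM. Cd47, Ptpn11, Inppl1, Nedd4, the surfactant, Sirpb1, Cd300 and checkpoint genes were named after their values were seen. Of 24 relatives, 6 had no matching symbol.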

Additional observations from a re-analysis of the deposited data

How the results depend on the processing

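The receptors' median of log2(TPM + 1), 5.65, moved to 7.54 with TPM relative to nuclear protein-coding genes, to 4.40 in the second transcript table, to 7.96 in TMM-scaled CPM, to 6.59 over members at 1 TPM or more, and to 7.58 in the second table relative to nuclear protein-coding genes, an alternative added after seeing the data. These are other scales or fewer genes. Without 1 library it was 5.45 to 5.77. Genes varying beyond sampling, 8842 (66.8% of those tested), numbered 4334 to 7376 (33.1% to 55.3%) without 1 library, with 4334 without replicate 2. The receptors called were 8 of 10 tested without replicate 1, 8 of 9 without replicate 2 and 9 of 9 without replicate 3. Lilrb4a minus Lilr4b, -0.49, reversed to 0.23 with Gm49339 counted with Lilrb4a, as did no other alternative tried (-0.62 to -0.46). The share of Pirb, 62.8%, was 64.1% in TPM and 60.4% with Gm14548 and Gm15448, the latter added after seeing the data. Receptors at 10 TPM or more numbered 6 to 9, the median BCV was 11.2% to 15.8%, and the share of the main transcript 52.2% to 58.6%. No paired comparison of groups was possible because the series has 1 group. Depth limits Siglece, with 7 to 12 counts.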
